A study of Mus musculus with 6 samples.

Results

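Ribosomal RNA genes lie in the genome as repeats, and 5 circular RNAs (circRNAs) measured here carry Rn45s or Gm26917 as their gene in the study's supplementary circRNA table. These 5 are described together with 4 circRNAs of the predicted gene XLOC_010800 from the same interval of chromosome 17, and the array held 14236 circRNA probes of 1 spot each. The members were chosen by their gene name, and every member stands in the study's list of circRNAs that differ between genotypes, so all 9 were selected on the genotype contrast described below. Their genotype differences are therefore descriptions without a test. The table was held only in part: 1927 circRNAs could be paired with a gene, so further circRNAs of these genes may lie in rows not analysed here.

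The study compared cortical microglia, the resident macrophages of the brain, between 3 wild-type (WT) C57BL/6J and 3 APP/PS1 mice, all male and 6 months of age. APP/PS1 mice carry a chimeric mouse and human amyloid precursor protein with the Swedish mutation (APPswe) and a mutant human presenilin (PSEN1dE9), and the promoter of these transgenes is not given in the sources used here. Cells that carry the myeloid surface protein CD11b were taken with magnetic beads, and the RNA was digested with RNase R, which degrades linear RNA, before labelling in 1 colour. Each array came from a separate donor by the design text, and fewer cells of a type and less RNA per cell cannot be told apart in such bulk samples.

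Ribosomal RNA is made by RNA polymerase I as a long precursor, in which the RNAs of the small and large ribosomal subunit are separated by spacers. Nucleases and small nucleolar RNAs trim and modify this precursor in the nucleolus until the mature RNAs are left, and the spacers are degraded. Rn45s is the name of the precursor transcript in the mouse, and Gm26917 is a predicted long noncoding RNA gene at the same place. A circRNA is a closed ring, in which a downstream end is joined to an upstream end, and RNase R leaves rings largely intact.

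The 5 members spanned 3441 nt of chromosome 17, and 4 of them lay within its first 1116 nt on the plus strand. The first, mmu_circRNA_018683 (Rn45s, chr17:39844472-39845587, plus strand), was 1116 nt long and classed as sense overlapping. Inside it lay mmu_circRNA_012412 (Rn45s, chr17:39845058-39845140) and mmu_circRNA_016863 (Rn45s, chr17:39845133-39845215), both sense overlapping and 83 nt long, which shared 8 nt with each other. Also inside it was mmu_circRNA_013885 (Gm26917, chr17:39845289-39845357), which was intronic and 69 nt long. The last, mmu_circRNA_018654 (Rn45s, chr17:39847763-39847912, minus strand), was antisense, 150 nt long and 2175 nt beyond the end of the first.

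The 4 circRNAs of XLOC_010800 lay on the opposite strand to the enclosing mmu_circRNA_018683 and were all inside its interval. The nearest, mmu_circRNA_005444 (chr17:39845364-39845455, 92 nt, sense overlapping), began 6 nt after the end of the Gm26917 circRNA. It was followed without a gap by mmu_circRNA_015214, mmu_circRNA_006032 and mmu_circRNA_003160, all intronic, which shared their lowest position, 39845456, and were 64, 70 and 110 nt long. Of the plus strand members only mmu_circRNA_018683 shared positions with the neighbours, and the other 3 ended before the first of them began. Members that overlap share sequence and are not independent measurements.

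**Figure D1:**
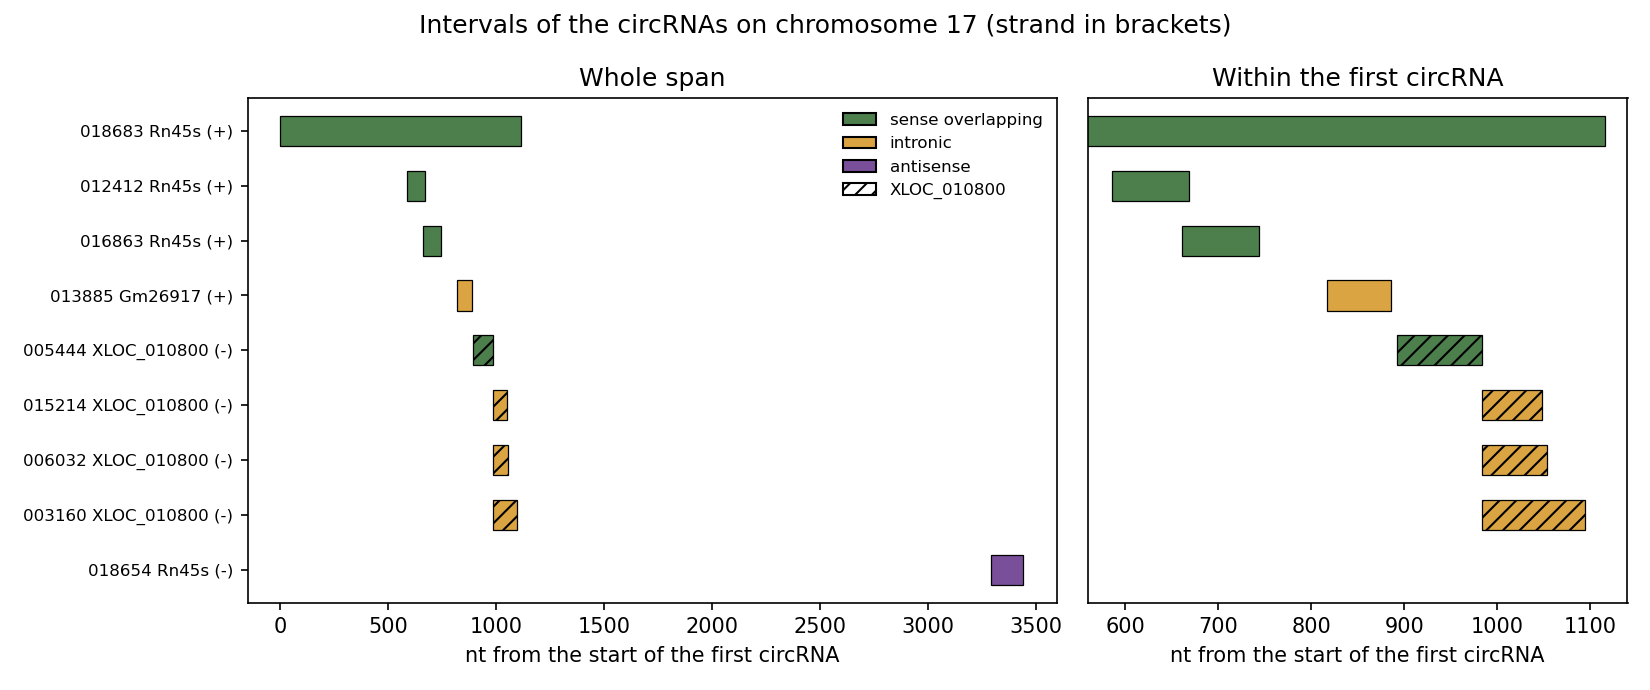
Intervals of the 9 circRNAs, in nt from the start of mmu_circRNA_018683 on the horizontal axis, with 1 row per circRNA, colour for the class, hatching for XLOC_010800 and the strand in brackets. The right panel enlarges the part of mmu_circRNA_018683 that holds 3 members and all 4 neighbours, and the antisense member lies apart, 3291 to 3440 nt from the start.

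The genome build behind these positions is not named in the supplementary table, and the scanner header names mm9 for the array design. RefSeq genes of assembly GRCm38.p6 could be matched by transcript to 1660 held circRNAs, and 1626 of these, or 97.95%, lay inside the matched gene, as did 54 of 56 on chromosome 17. If the positions are of that assembly, the antisense member lay inside Rn18s-rs5, an entry for sequence related to the small-subunit ribosomal RNA, and no entry covered the other 8 circRNAs. The table had no entry for Rn45s or Gm26917, so the place of the plus strand members within the precursor was not determined.

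All 9 circRNAs had circBase, a database of circRNAs, as their source, and 8 of the 9 were no longer than 150 nt. Among the 1734 circRNAs held without regard to the genotype contrast, 213 had this source and 57 were 150 nt or shorter, a share of 3.29%, while of the 213 from circBase 29 were that short, with a median length of 433 nt over the 213. The median length of the 1734 was 727 nt, against 83 nt for the 5 members and 81 nt for the 4 neighbours. Short circRNAs were commonest among the antisense ones, where 14 of 29 were 150 nt or shorter, while 17 of 94 intronic and 13 of 229 sense overlapping circRNAs were. The antisense class, to which 1 member belonged, made up 1.67% of these 1734 circRNAs and the intronic class 5.42%.

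All 9 circRNAs were bright spots on every array. The median signal of the members' spots lay between 1014 and 6280 intensity units over local backgrounds of 12.5 to 25.5, so each spot was at least 50.7 times as bright as its surroundings. All 30 member spots and all 24 neighbour spots were marked as well above background, and none was marked as an outlier or saturated. All 5 members and all 4 neighbours passed the filter on dim spots, which 13420 circRNAs passed, and since they were well above background on all 6 arrays, none passed it through 1 genotype alone.

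By the mean normalized log2 signal, the members lay at percentiles 98.5, 97.3, 97.7, 97.4 and 97.1 of the circRNAs kept, in their order along the chromosome. On single arrays, no member was below percentile 94.7 of the processed signals. The neighbours lay at percentiles 88.7, 89.5, 91.5 and 90.5. Probes differ in how well they bind, so these percentiles describe spots and do not rank the amounts of RNA.

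The circRNA that encloses most of the others, mmu_circRNA_018683, had a normalized log2 signal of 12.52, 12.33 and 12.21 in WT samples 1, 2 and 3 and of 11.91, 11.39 and 11.84 in APP/PS1 samples 1, 2 and 3. All 3 APP/PS1 values were below the lowest WT value, and APP/PS1 sample 2 was the lowest. The means were 12.36 ± 0.15 and 11.71 ± 0.28 (SD, n = 3 each), a log2 difference of -0.64, so the APP/PS1 level was 64.1% of the WT level.

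The Gm26917 circRNA, mmu_circRNA_013885, followed the same course, with log2 signals of 11.80, 11.63 and 11.46 in WT samples and of 11.16, 10.65 and 11.04 in APP/PS1 samples 1, 2 and 3. The samples had the same order as for the enclosing Rn45s circRNA, with WT 1 highest and APP/PS1 2 lowest. The log2 difference was -0.68, from 11.63 ± 0.17 to 10.95 ± 0.27 (SD, n = 3 each), or 62.4% of the WT level.

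The pair of overlapping 83 nt Rn45s circRNAs differed in size of the difference. For mmu_circRNA_016863, log2 signals were 11.95, 12.24 and 11.77 in WT samples and 11.24, 10.56 and 10.95 in APP/PS1 samples 1, 2 and 3, with a log2 difference of -1.07 and an APP/PS1 level of 47.5% of WT. For mmu_circRNA_012412, they were 11.32, 11.96 and 11.17 in WT samples and 11.04, 10.71 and 11.06 in APP/PS1 samples, with a log2 difference of -0.54 and a level of 68.6% of WT. WT sample 2 was the highest for both, and the genotypes did not overlap for either, but for mmu_circRNA_012412 only 0.11 log2 units lay between the lowest WT and the highest APP/PS1 value. Without WT sample 2, its difference was -0.31.

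The antisense member mmu_circRNA_018654 had log2 signals of 12.19, 11.34 and 11.50 in WT samples and of 10.15, 10.78 and 10.68 in APP/PS1 samples 1, 2 and 3. WT 1 stood above the other WT samples, APP/PS1 1 was the lowest of all, and the genotypes did not overlap. The log2 difference was -1.14, from 11.67 ± 0.45 to 10.54 ± 0.34 (SD, n = 3 each), or 45.4% of the WT level. The WT 1 value, on which the WT spread rests, was closer to the others in the deposited values given below.

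**Figure D2:**
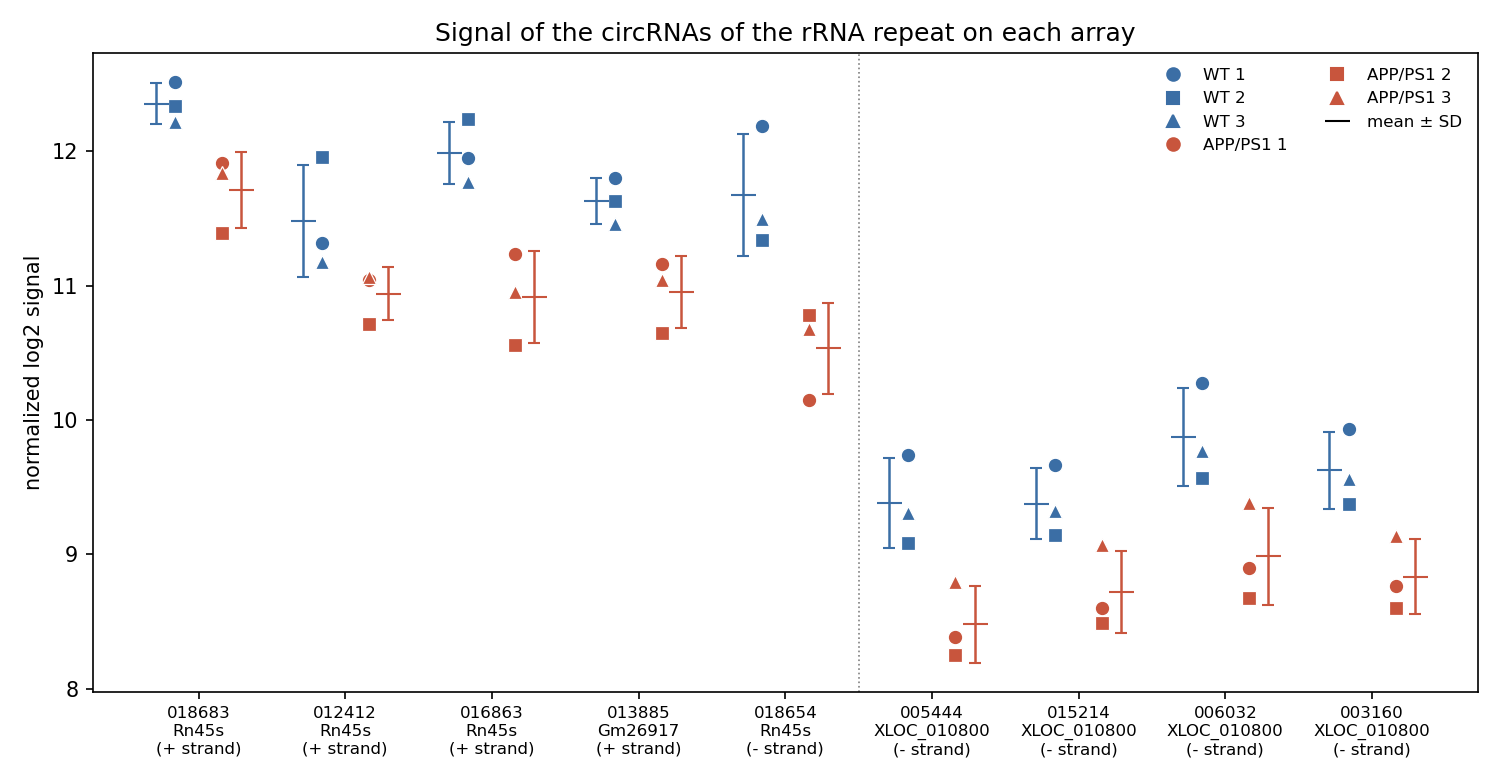
Normalized log2 signal (vertical axis) of the 5 members, left of the dotted line, and the 4 XLOC_010800 circRNAs, right of it, with 1 symbol per array and the mean and SD of the 3 arrays of each genotype beside them. For each circRNA the 3 APP/PS1 values lie below the 3 WT values, and the distance between the genotypes is widest for mmu_circRNA_018654 and mmu_circRNA_016863.

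The 4 XLOC_010800 circRNAs were also lower in APP/PS1 samples, with log2 differences of -0.90, -0.66, -0.89 and -0.79 in the order of their intervals. The log2 signals of mmu_circRNA_006032, taken as an example, were 10.28, 9.57 and 9.77 in WT samples and 8.90, 8.67 and 9.38 in APP/PS1 samples 1, 2 and 3. In each of the 4, WT 1 was the highest and WT 2 the lowest WT sample, and APP/PS1 3 was the highest and APP/PS1 2 the lowest APP/PS1 sample. The distance between the lowest WT and the highest APP/PS1 value ran from 0.08 log2 units for mmu_circRNA_015214 to 0.29 for mmu_circRNA_005444.

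The median log2 difference was -0.68 over the 5 members and -0.84 over the 4 neighbours, beside -0.01 over all 13420 circRNAs. At thresholds of 1.5 for the fold change and 0.05 for the unadjusted p in limma, 4 of the 5 members and 4 of the 4 neighbours were lower, beside 303 of 13420 circRNAs, or 2.26%, and nothing is read from this because the same contrast selected them. The exception was mmu_circRNA_012412, whose fold was 1.46. Higher signals at these thresholds were found for 423 circRNAs, or 3.15%, and for none of the 9. With each array scaled to its 75th percentile, 409 circRNAs were lower and 340 higher, with cyclic loess 255 and 436, and without APP/PS1 sample 1 the number of lower ones was 508. Without APP/PS1 sample 2, 2 of the 5 members and 3 of the 4 neighbours were past both thresholds, beside 249 lower of all 13420 circRNAs. Without scaling between arrays, a setting added after seeing the data, 2 of the 5 and 0 of the 4 were, beside 48 lower of 13420.

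No circRNA had a Benjamini-Hochberg adjusted p under 0.05 in limma, where 2384 had an unadjusted p under 0.05, and 4 circRNAs, none of them among the 9, were under the adjusted threshold by the methods' t-test. The genotypes did not overlap, with APP/PS1 lower, in 5 of the 5 members and 4 of the 4 neighbours, beside 1715 of all circRNAs, or 12.8%. In the brightest 10%, which held 1342 circRNAs, 33 or 2.46% were lower past both thresholds and 155 or 11.5% did not overlap with APP/PS1 lower. In the list of all differences sorted from the lowest, mmu_circRNA_018654 stood at place 11, mmu_circRNA_016863 at 16, mmu_circRNA_013885 at 198, mmu_circRNA_018683 at 249 and mmu_circRNA_012412 at 453. These places depend on the signal used, since in the deposited log2 values they were 14, 6, 49, 61 and 55 in the same order of circRNAs.

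**Figure D3:**
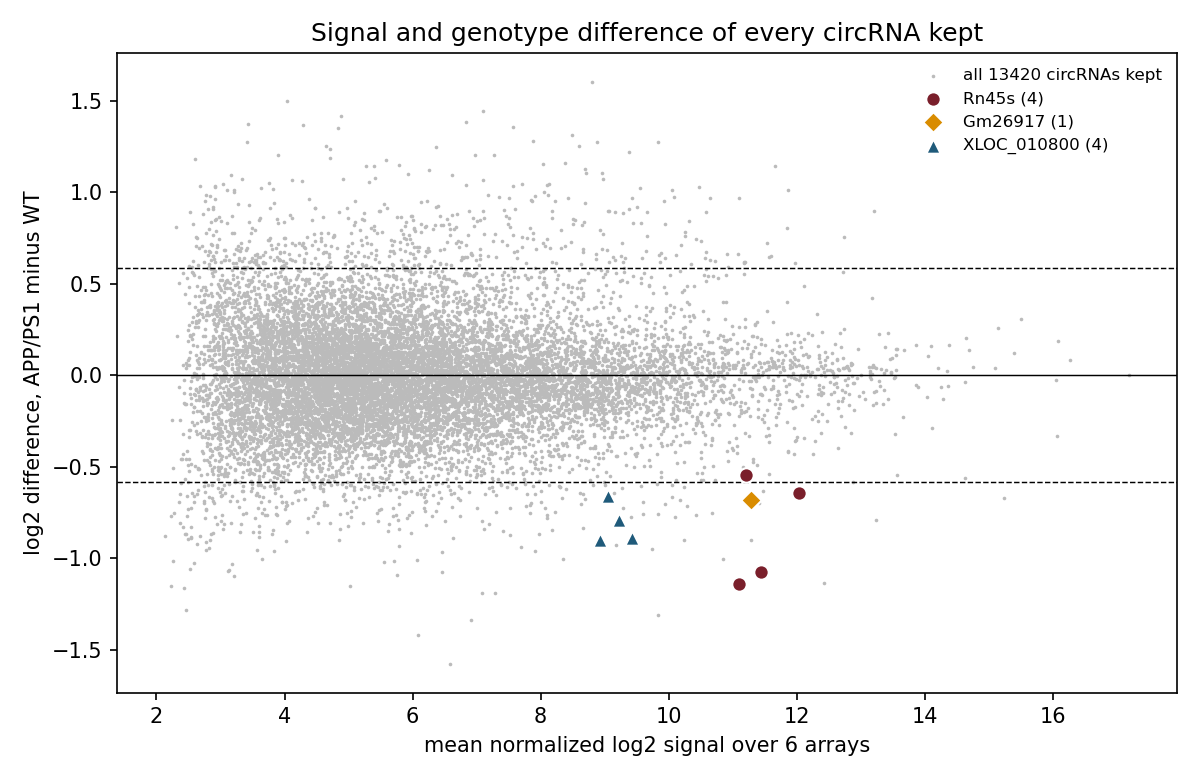
Mean normalized log2 signal over 6 arrays (horizontal axis) and log2 difference of APP/PS1 minus WT (vertical axis) of each of the 13420 circRNAs kept, with the 4 Rn45s, 1 Gm26917 and 4 XLOC_010800 circRNAs as large symbols and dashed lines at a fold change of 1.5. The 9 lie below 0 among bright circRNAs, where most others lie near 0, and mmu_circRNA_012412 lies just inside the dashed line.

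The deposited log2 values were also compared by the methods' t-test, a combination chosen after seeing the data. Computed so, 72 circRNAs were lower and 146 higher past the same fold and p. All 72 stand in the list from which the 9 were selected, so the presence of the 9 among them was fixed in advance and is no further comparison. The member nearest to the fold threshold was then mmu_circRNA_018683, with a log2 difference of -0.68 against a threshold of -0.585. Among all circRNAs below that p, the nearest inside the threshold had -0.5853 and the nearest outside -0.5824. No Rn45s or Gm26917 circRNA outside the threshold was held.

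In the WT arrays the antisense member and the 4 neighbours had the same order, WT 1 above WT 3 above WT 2. They differed from each other in the order of the APP/PS1 arrays. The plus strand members had other WT orders, which were not the same in all of them. Each plus strand member was lowest in WT 3 and in APP/PS1 2, with mean deviations from the genotype mean of -0.21 and -0.30 log2 units over the 4 circRNAs. The neighbours were highest in WT 1 and APP/PS1 3, with mean deviations of 0.34 in both, and lowest in WT 2 and APP/PS1 2, with -0.27 and -0.25. On these processed signals the antisense member was highest in WT 1 and lowest in WT 2, by 0.51 and -0.34, and in the deposited values, where its WT values were 11.54, 11.35 and 11.39, by less. It was lowest in APP/PS1 1, by -0.39, and highest in APP/PS1 2, by 0.25. With 3 arrays per genotype these orders are a description only.

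**Figure D4:**
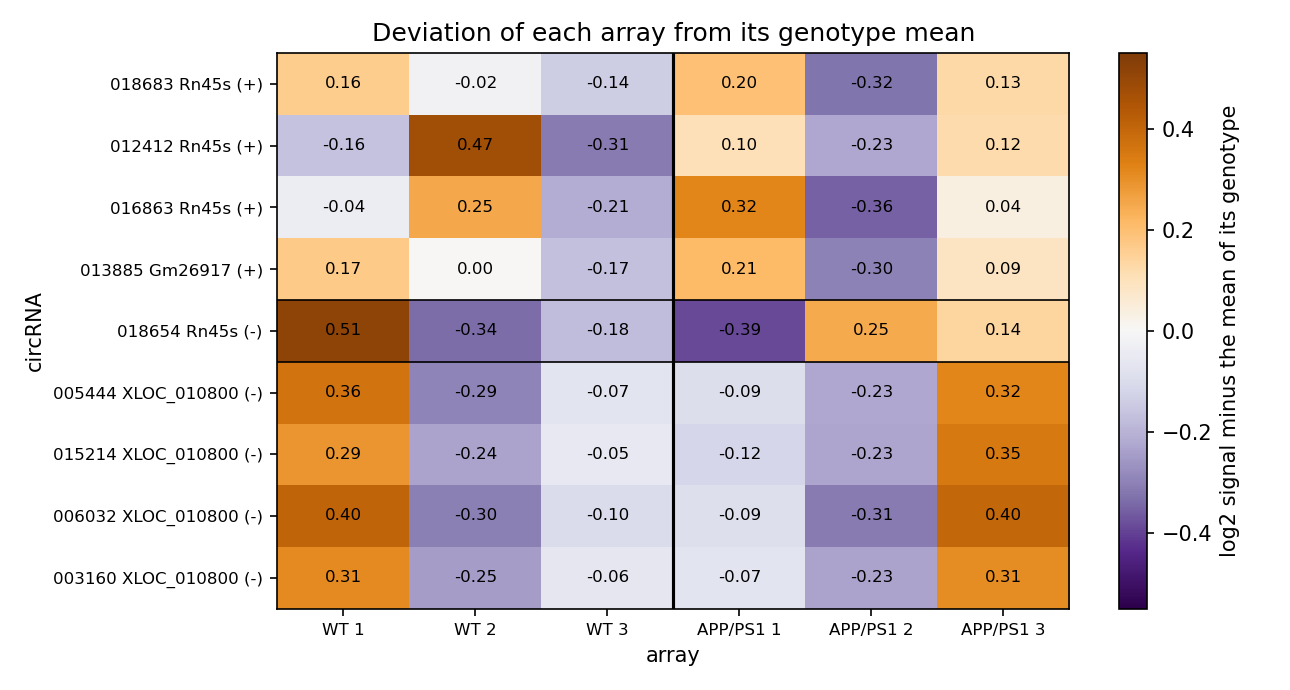
Normalized log2 signal of each array (columns) minus the mean of its genotype, for the 4 plus strand members, the antisense member and the 4 XLOC_010800 circRNAs (rows), with colour and number giving the deviation. The 4 XLOC_010800 rows are nearly alike, the plus strand rows share a low WT 3 and APP/PS1 2, and the antisense row is high in APP/PS1 2.

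Likeness of profiles was measured as the root mean square distance between log2 values over the 6 arrays, each circRNA centred on its own mean. The median distance was 0.08 between pairs of XLOC_010800 circRNAs, 0.26 between pairs of plus strand members and 0.48 between the antisense member and the plus strand members. The XLOC_010800 circRNAs were at a median of 0.31 both from the antisense member and from the plus strand members, and on deviations from the genotype mean at 0.26 and 0.28. The genotype difference, which selected all 9, is part of these distances.

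The closest pair among the 9 was the enclosing mmu_circRNA_018683 and the Gm26917 circRNA mmu_circRNA_013885 inside it, at a distance of 0.03. Among the 13406 other circRNAs with a value on all arrays, each was the nearest to the other, beside a median distance of 0.41 from mmu_circRNA_018683 to all others. On deviations from the genotype mean, which do not hold the genotype difference, mmu_circRNA_013885 was again the nearest to mmu_circRNA_018683, at 0.02, and mmu_circRNA_018683 was at place 3 for mmu_circRNA_013885. The circRNAs mmu_circRNA_012412 and mmu_circRNA_016863, which share 8 nt, were 0.31 apart over the 6 arrays. There mmu_circRNA_016863 was at place 945 for mmu_circRNA_012412, and mmu_circRNA_012412 at place 129 for mmu_circRNA_016863. On deviations from the genotype mean they were 0.16 apart, at places 80 and 375.

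For each of the 4 XLOC_010800 circRNAs, the other 3 were among the nearest 100 of 13406 circRNAs, both over the 6 arrays and on deviations from the genotype mean. The distances from mmu_circRNA_005444, which shares no position with the others, were 0.13 to mmu_circRNA_015214, 0.05 to mmu_circRNA_006032 and 0.06 to mmu_circRNA_003160. For mmu_circRNA_015214 and mmu_circRNA_003160, whose intervals overlap over 64 nt, the distance was 0.07. It was 0.13 for mmu_circRNA_015214 and mmu_circRNA_006032, which also overlap over 64 nt. For mmu_circRNA_006032 and mmu_circRNA_003160, which overlap over 70 nt, it was 0.08. On deviations from the genotype mean, the distances of these 3 overlapping pairs were 0.03, 0.07 and 0.07 in the order given. Those from mmu_circRNA_005444 were 0.04, 0.05 and 0.03, in the same order as above. Whether probes of overlapping intervals bind the same RNA was not tested, since probe sequences were not used here.

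Of the 13407 circRNAs with a value on all arrays, 1863 outside the interval were paired with a gene. Among these, the 5 nearest to the members' mean profile, taking 1 per gene, belonged to Cacna1d, a voltage-gated calcium channel subunit, Tmed9, a protein of the early secretory pathway, Gas5, a host gene of small nucleolar RNAs, Cmss1, and Gfra1, a receptor subunit for glial cell line-derived growth factors. Their distances were 0.06, 0.07, 0.09, 0.10 and 0.10, beside a median of 0.46 over all 13407, and they stood at places 1, 2, 4, 6 and 7 among all. The mean profile stood for the members poorly, since their own distances from it ran from 0.10 to 0.39, at places 15, 487, 195, 8 and 3428 in their order along the chromosome, so all 5 named circRNAs were nearer to it than any member. The Gas5 circRNA, mmu_circRNA_015001, was antisense and 62 nt long, and the Cmss1 circRNA, mmu_circRNA_005252, was intronic and 71 nt long. The Gas5 circRNA had log2 signals of 10.41, 10.24 and 10.00 in WT samples and of 9.44, 9.22 and 9.71 in APP/PS1 samples 1, 2 and 3. All 5 stand in the same list of circRNAs selected on the genotype contrast.

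The members took a small part of the light on each array. Their processed signals summed to 0.413%, 0.383% and 0.292% of the total circRNA signal on WT arrays 1, 2 and 3 and to 0.232%, 0.195% and 0.241% on APP/PS1 arrays 1, 2 and 3. The WT shares lay above all APP/PS1 shares, with means of 0.363% ± 0.063 and 0.223% ± 0.024 (SD, n = 3 each). With the 4 neighbours the means were 0.423% and 0.259%. The summed signals themselves overlapped, with 12944 on WT array 3 and 13448 on APP/PS1 array 3. The shares also depend on the totals given below, and the members were selected on this contrast, so the shares are no separate comparison.

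Before any scaling between arrays, a setting added after seeing the data, the genotypes were closer. The median log2 difference was then 0.26 over all circRNAs kept and -0.34 over the 5 members. APP/PS1 arrays 2 and 3 had a higher total signal than every WT array, and APP/PS1 array 1 a lower one than WT array 1. The unscaled values of the genotypes overlapped in 4 members and 4 neighbours and did not overlap in mmu_circRNA_016863. The share of all circRNAs that overlapped without scaling was not counted, so nothing is read from these numbers. The total processed signals of the circRNA spots were 5032715, 4400744 and 4429889 on WT arrays and 4599797, 6442843 and 5569184 on APP/PS1 arrays 1, 2 and 3. The WT arrays lay in row 1 and the APP/PS1 arrays in row 2 of the same slide, which means that the position on the slide and the genotype cannot be told apart.

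The WT 1 value of the antisense member differed between the signals given by the scanner software. Its processed signal was 1.58 times its background-subtracted signal on WT array 1 and between 1.02 and 1.11 times on the other 5 arrays. For mmu_circRNA_012412 this ratio was 0.78 on WT array 1 and between 0.95 and 1.06 elsewhere. In the brightest 10% of circRNAs, the ratios from percentile 5 to 95 ran from 0.85 to 1.49 on WT array 1 and from 0.97 to 1.04 on WT array 2. In the deposited log2 values, mmu_circRNA_018654 had 11.54, 11.35 and 11.39 in WT samples, with WT 1 still the highest but by less, and a difference of -0.90, and mmu_circRNA_012412 had 11.66, 12.005 and 11.26 and a difference of -0.70. What the software changed between these signals was not tested.

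**Figure D5:**
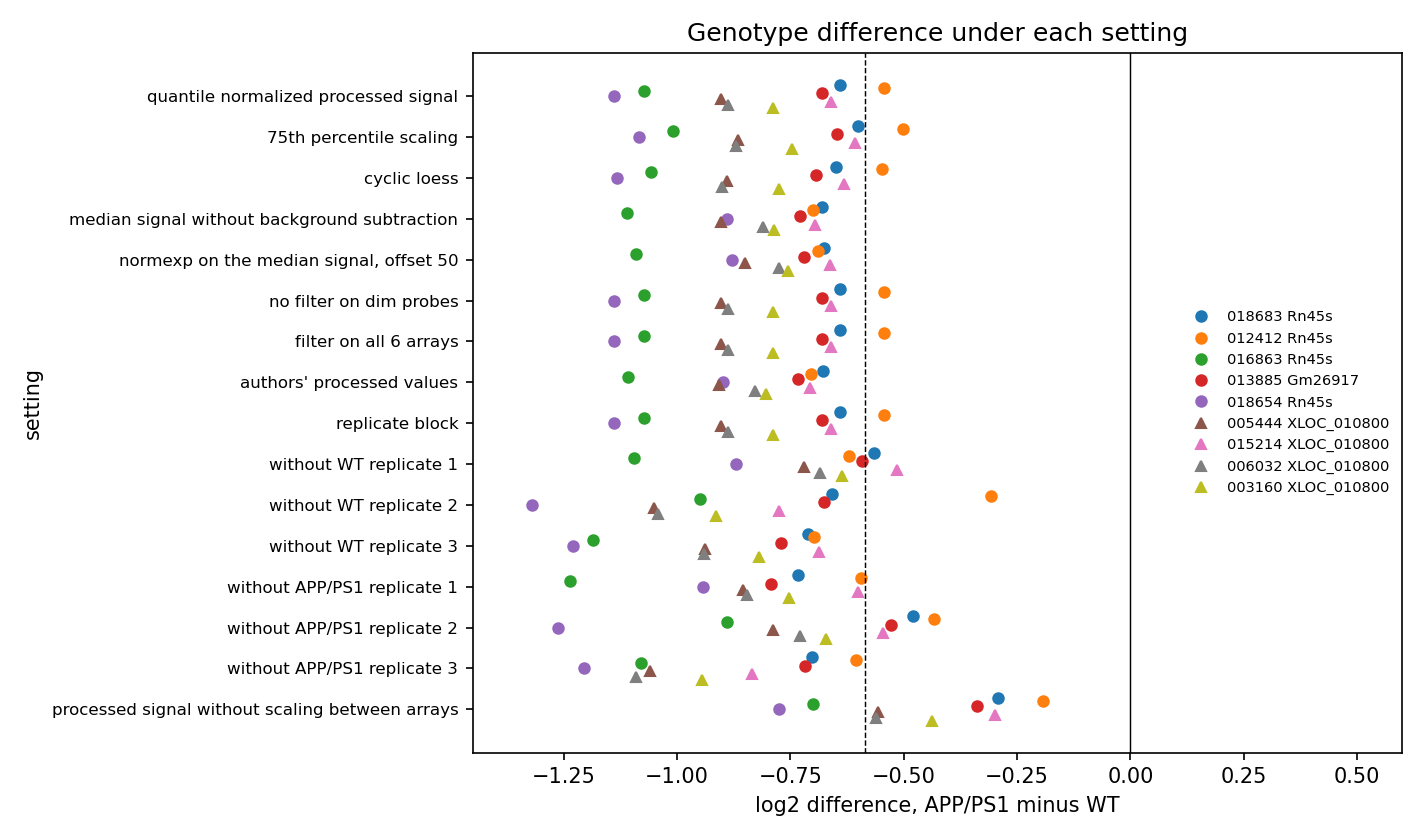
Log2 difference of APP/PS1 minus WT (horizontal axis) for each of the 9 circRNAs under each setting of the processing (rows), with circles for members, triangles for XLOC_010800 and a dashed line at a fold change of 1.5. All values are below 0; those of mmu_circRNA_018654 and mmu_circRNA_012412 move between processed and median signals, and all 9 lie nearer to 0 without scaling between arrays.

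Host genes that make, process or belong to ribosomes were taken as a further list. Of its 166 named genes and the ribosomal protein genes, 19 had circRNAs in the rows held without regard to the contrast, 20 circRNAs in all. None was past both thresholds in either direction, beside 33 lower and 50 higher of the 1734 circRNAs in those rows. In limma 0 of the 20 had an unadjusted p under 0.05, beside 306 of the 1734, and the methods' t-test gave 1 of the 20 and 258 of the 1734. The median log2 difference was -0.02, with a range from -0.41 to 0.44. The members cannot be set against these values, because they were selected on the contrast and the 20 were not.

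The 4 with the highest signal were circRNAs of Wdr36, a nucleolar protein of small-subunit processing, Exosc9, a subunit of the RNA exosome, Heatr3, a protein of ribosomal protein import, and Rps13, a protein of the small subunit. For Wdr36, log2 signals were 12.54, 12.21 and 12.20 in WT samples and 12.15, 12.47 and 12.45 in APP/PS1 samples 1, 2 and 3, and the genotypes overlapped. The log2 differences of the 4 were 0.04, 0.25, -0.08 and 0.08, and the genotypes overlapped in each. A circRNA of Dhx15, an RNA helicase, was paired with its gene only in the list selected on the contrast, where it was higher by 1.11 log2 units in APP/PS1.

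The study reported the microglial marker Cx3cr1 mainly in the CD11b-positive cells, with hardly any in CD11b-negative ones. On these arrays the labelled cell type could hardly be checked. Of 22 microglial marker genes, 1 had a circRNA in the rows held without regard to the contrast. This circRNA of Inpp5d, a lipid phosphatase of immune cells, had log2 signals of 7.35, 7.65 and 7.23 in WT samples and of 7.46, 6.41 and 7.01 in APP/PS1 samples, and the genotypes overlapped. Of 11 neuronal marker genes, Map2, Rims1 and Rims2 had circRNAs, and their summed signal was 7.56, 7.48 and 7.74 in WT and 7.65, 6.92 and 7.17 in APP/PS1 samples 1, 2 and 3 on the log2 scale. The Rims1 circRNA was lower in all 3 APP/PS1 samples than in any WT sample, with a log2 difference of -0.53 (adjusted p = 0.163 in limma). The differences of the Rims2 and Map2 circRNAs were 0.04 and -0.09, and their genotypes overlapped. The sum was lowest in APP/PS1 2, as were the Inpp5d circRNA, the plus strand members and the neighbours. The Map2 circRNA and the antisense member were lowest in APP/PS1 1, and the circRNA of the astrocytic gene Slc1a2 in WT 3. The part of cell composition in these values was not tested. Of 6 astrocytic marker genes, Slc1a2 had a circRNA with a log2 difference of -0.04, and of 6 oligodendrocytic ones none had.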

How the data were processed

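Microglial circRNA was measured on 1-colour Agilent arrays, 1 per sample. The authors deposited the scanner output, with spot intensity and local background per Feature Extraction 11.0.1.1 and no normalization between arrays, and a table of log2 values, made by quantile normalization in limma per the methods, whose background correction is not given in the sources used here. Positions, genes, classes and sources of circRNAs were read from the supplementary circRNA table through the probe identifier, and its columns of fold changes, p-values and signals were not used.

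With R 4.3.3 and limma 3.58.1, processed signals were log2 transformed, outlier spots were left out, circRNAs well above background on at least 3 of 6 arrays were kept, and arrays were quantile normalized. Genotype was the only term in lmFit and eBayes, and all circRNAs kept entered the Benjamini-Hochberg adjustment. The fit was tested on simulated data, where unchanged circRNAs also passed the thresholds below, so counts at these thresholds may hold false calls. Thresholds were 1.5 for the fold change and 0.05 for the unadjusted p. The members and lists were chosen with earlier results of these data known. Circular RNAs named outside the interval were, of the ribosome list, those past both thresholds and the 4 with the highest signal, and the 5 nearest profiles, 1 per gene. Of the cell type marker lists, every gene with a circRNA in the rows held without regard to the contrast was named. Dhx15 was named after its values were seen. Arrays number 3 per genotype, which limits the precision.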

Additional observations from a re-analysis of the deposited data

How the results depend on the processing

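The differences of the 5 members and the 4 XLOC_010800 circRNAs were below 0 under every setting run. The members' median ranged from -0.79 to -0.53 when 1 array was left out, without APP/PS1 replicate 1 and 2 respectively, and the neighbours' from -1.002 to -0.66. Without scaling between arrays, a setting added after seeing the data, the medians were -0.34 and -0.50, beside 0.26 over all circRNAs. The median percentile of the 5 members' signal stayed between 97.0 and 97.6. The normexp setting used median spot signals, because the files used here hold no mean spot signals.

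The number of circRNAs lower and higher past both thresholds, 303 and 423, was 90 and 197 with unsubtracted median signals, 59 and 128 with normexp, and 104 and 214 with the authors' log2 values. Further settings were added after seeing the data: combining the authors' values and the methods' t-test gave 72 and 146, and processed signals without scaling gave 48 and 1538. With 1 array left out, the lower ones numbered between 234 and 508 and the higher ones between 355 and 540. An adjusted p under 0.05 was reached by 2 circRNAs with normexp, by 4 with the methods' t-test on the main values, by 2 with that test on the authors' values and by 249 without scaling. What caused these shifts was not tested. The methods' t-test on the main values gave 202 and 282. All planned settings were run.

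With the replicate number as a replicate block, 305 were lower and 444 higher, and the medians of the members and neighbours were -0.68 and -0.84. Arrays of the same number did not deviate together, with correlations of -0.25, -0.08 and -0.22. These values gave no sign of pairing, but they cannot show whether samples were handled as pairs. In both genotypes arrays 1 and 2 lay in slide columns 1 and 2, while WT 3 lay in column 3 and APP/PS1 3 in column 4.

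The ratio of signal to background was at least 20.7 for all 9 circRNAs, and whether it limited these values was not tested. Each circRNA has 1 spot per array, so spot error was not measured.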
